A study of Capra hircus with 12 samples.

Results

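The miR-379 to miR-656 cluster is a run of miRNA genes inside the imprinted DLK1-DIO3 region. It was followed here through the 54 mature goat miRNAs (of 500 in the table of counts) whose names carry a number of the cluster. The choice was made by name, without a measured value in the rule, but with earlier results of these data known. Of 36 numbers looked for, 27 were found in the table, and they stand for 36 precursors.

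The libraries are of small RNA from the longissimus dorsi, the long muscle beside the spine, and come from 2 breeds, the Longlin goat, native to China, and the Nubian goat, which was introduced there. Each breed has 3 libraries labelled 1-Month and 3 labelled 10-Month, 12 in all, each from a ram with no treatment named. The study asked which RNAs differ while the muscle fibres enlarge. The samples are whole muscle, so fewer cells of a type and less RNA per cell cannot be told apart.

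The DLK1-DIO3 region is expressed from 1 parental copy only. DLK1, RTL1 and DIO3 are made from the copy inherited from the father, while the long noncoding RNAs and the miRNAs of the region are made from the copy inherited from the mother. The miRNAs of the cluster are cut from long transcripts, and each precursor can give a mature miRNA from its 5′ side (5p) and another from its 3′ side (3p). The region is known in sheep for the callipyge mutation, which enlarges muscles of the hindquarters, and its miRNAs are usually abundant in embryonic tissue, placenta and brain. The mature sequences were not used here.

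In the RefSeq annotation of the goat assembly ARS1.2, all 36 precursors lie on chromosome 21 between base 65186799, where MIR379 begins, and base 65229058, where MIR656 ends. This stretch of 42.3 kb holds 38 annotated genes, and all of them are miRNA genes. MIR3958 and MIR3959 are the only ones among them that the names did not select. Neighbouring precursors are separated by a median of 402 bases, from 13 to 4482. DLK1 ends 279.5 kb before MIR379 and DIO3 begins 523.2 kb after MIR656. Of the 54 members, 25 are named as 3p, 19 as 5p and 10 without an arm, and 18 precursors have both arms in the table. Members of the families miR-376, miR-329, miR-411, miR-154, miR-487 and miR-323 resemble each other, so that counts of related members could be split between them by the authors' assignment and are uncertain to that extent.

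The age names differ between the deposited tables. For 54 of 54 members in either breed, the mean of the libraries with a given label in the table of counts is found in the authors' comparison table under the other age, within a relative tolerance of 0.0001. The same holds for 500 of 500 miRNAs in either breed. For miR-381 in Longlin goats, the comparison table gives 390691 for 1 month and 2437.87 for 10 months, while the libraries labelled 1-Month average 2437.87 and those labelled 10-Month 390691 on the same scale. Nothing in the tables settles which of them is right. The groups are therefore called by their labels, and every direction by age below would turn around if the labels were exchanged.

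The libraries hold 7002417 to 11350546 miRNA counts. The tissue label was checked against muscle fibre miRNAs (miR-1, miR-133, miR-206, miR-208b and miR-499), which took 39.4% to 71.7% of the counts of a library, and miR-1 was the most abundant miRNA overall. Levels are given in CPM (counts per 1000000 counts) scaled by TMM over the 12 libraries, with no length term. In the fold changes TMM was applied within the 6 libraries compared, which shifts the median of all miRNAs in Longlin goats by 0.30 on the log2 scale against the scaling over 12 libraries. The Nubian library of the 1-month label, replicate 2, stood apart from the others of its group in this cluster. The main Nubian counts and values are also given without it. It was picked by the members' own values, so tests without it give no independent support for a difference.

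The cluster took a small share of the miRNA counts in every library of the 1-month label and a much larger one in every library of the 10-month label. In Longlin goats its share was 0.276%, 0.205% and 0.109% with the 1-month label and 13.1%, 9.48% and 7.52% with the 10-month label. In Nubian goats it was 0.0728%, 0.467% and 0.0579% with the 1-month label and 2.77%, 3.20% and 1.49% with the 10-month label. The groups of different labels do not overlap in either breed. The mean share went from 0.197% ± 0.084 to 10.1% ± 2.9 in Longlin goats (SD, n = 3), a ratio of 51.1, and from 0.199% ± 0.232 to 2.49% ± 0.89 in Nubian goats (SD, n = 3), a ratio of 12.5. Without the Nubian library that stood apart the 1-month mean was 0.0653% and the ratio 38.1. The share is a sum over the members and carries no test. Its 95% Wilson interval is narrow at these depths, for example 0.107% to 0.112% in the library with 0.109%, and covers counting error only.

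**Figure D1:**
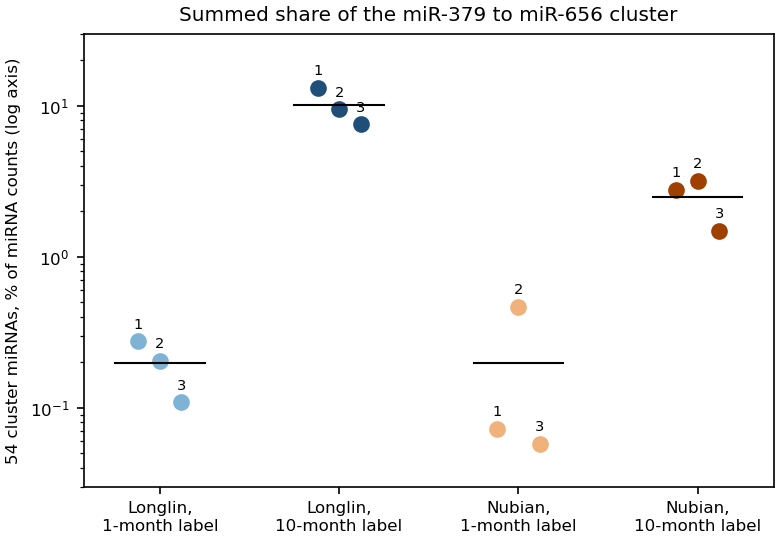
Share of a library's miRNA counts (percent, log axis) on the 54 members, with 1 point per library marked by its replicate number and a line at the mean of each group of 3. The Longlin libraries of the 10-month label lie between 7.52% and 13.1% and those of the 1-month label between 0.109% and 0.276%, while replicate 2 of the Nubian 1-month label (0.467%) lies above its group.

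Detection followed the same order. All 54 members had a count in at least 1 Longlin library of the 10-month label, 50 in a Nubian library of the 10-month label, 46 in a Longlin and 45 in a Nubian library of the 1-month label. In every library of the group, 3 counts or fewer were found for 2 members in the Longlin libraries of the 10-month label, 16 in those of the 1-month label, 10 in the Nubian libraries of the 10-month label and 19 in those of the 1-month label. A member at 3 counts or fewer is at the detection limit, and its absence cannot be told from low depth. A count in all 12 libraries was found for 28 members. For 13 members fewer than 3 libraries reached 10 counts, and they were not tested in any comparison. These had 69 counts or fewer over all libraries and together 11 counts in the Longlin libraries of the 1-month label, 295 in those of the 10-month label, 16 in the Nubian libraries of the 1-month label and 39 in those of the 10-month label.

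The cluster is dominated by 3 members. The mean over the 12 libraries was 14741 CPM for miR-381, 6903 CPM for miR-411a-5p and 2686 CPM for miR-379-5p, followed by 565 CPM for miR-495-3p and 271 CPM for miR-369-3p. miR-381 ranked 9 among all miRNAs by its mean share of a library's counts. The first 3 made up 82.9% to 92.8% of the cluster's counts in each library.

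The leading member was not the same with both labels. miR-381 led in the 6 libraries of the 10-month label, while with the 1-month label miR-411a-5p led in 4 libraries and miR-379-5p in 2. miR-379-5p, from the first precursor of the cluster, made 35.5%, 39.2% and 42.2% of the cluster's counts in the Longlin libraries of the 1-month label and 9.22%, 10.1% and 7.96% in those of the 10-month label. miR-381, from the middle of the cluster, made 12.8%, 11.3% and 8.04% with the 1-month label and 55.9%, 55.1% and 61.2% with the 10-month label. In Nubian goats miR-381 made 8.04%, 12.7% and 28.3% with the 1-month label and 51.02%, 61.8% and 48.3% with the 10-month label, and miR-379-5p 34.4%, 34.5% and 26.9% against 10.3%, 5.81% and 10.2%. miR-411a-5p made 32.1% to 40.5% in the 6 libraries of the 1-month label and 22.7% to 31.9% in the 6 of the 10-month label, without overlap. The ratio of miR-381 to miR-379-5p counts was 0.191 to 0.360 in the Longlin libraries of the 1-month label and 5.47 to 7.69 in those of the 10-month label. In Nubian goats it was 0.234 to 1.05 and 4.74 to 10.6. These ratios within a library do not depend on the scaling between libraries, and they were not tested. Without miR-381 the rest of the cluster still went from a mean of 0.174% of the counts to 4.32% in Longlin goats and from 0.172% to 1.12% in Nubian goats, or from 0.0542% without the Nubian library that stood apart.

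**Figure D2:**
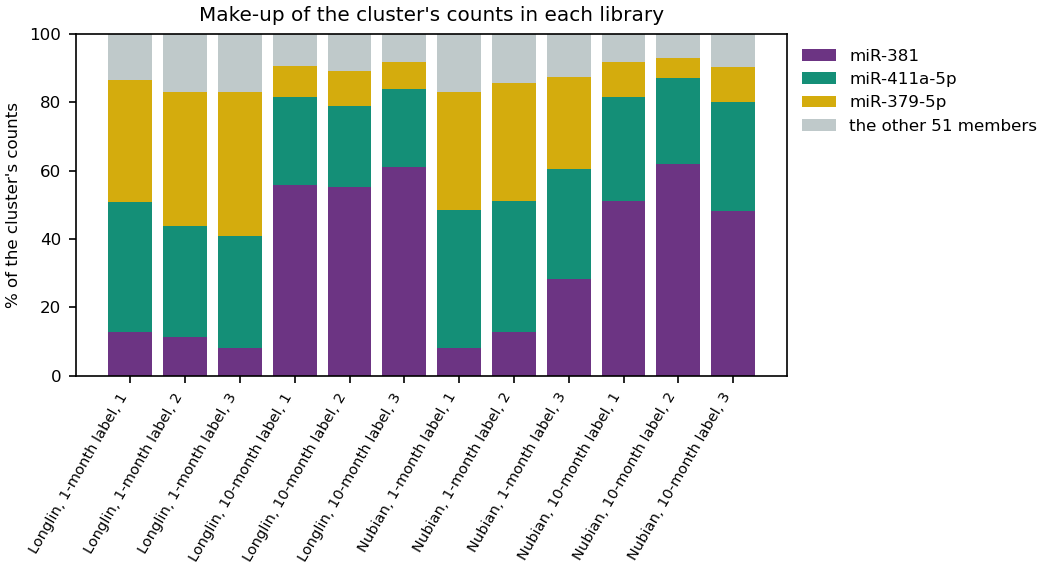
Percent of the cluster's counts on miR-381, miR-411a-5p, miR-379-5p and the other 51 members, as stacked bars from 0 to 100, 1 bar per library. The part of miR-381 is 8.04% to 28.3% in the 6 libraries of the 1-month label and 48.3% to 61.8% in the 6 of the 10-month label.

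In Longlin goats every member that could be tested was higher with the 10-month label. miR-381 was at 324, 265 and 105 CPM with the 1-month label and at 49838, 44532 and 36056 CPM with the 10-month label. Its log2 fold change was 7.22 ± 0.49 (SE, n = 3 libraries per label, 149-fold), with an edgeR adjusted p of 2.24e-06. miR-410-3p, a minor member near the MIR656 end of the cluster, was at 2.25, 0.980 and 0.515 CPM against 390.2, 370 and 196 CPM. Its log2 fold change of 7.53 ± 0.48 was the largest of all members (edgeR adjusted p = 2.24e-06).

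The other large changes were spread over the cluster. miR-655 went from 11.6, 9.10 and 4.46 CPM to 1012, 899 and 414 CPM, a log2 fold change of 6.16 ± 0.46. miR-495-3p went from 21.3, 37.5 and 25.4 CPM to 2725, 2164 and 926 CPM, a log2 fold change of 5.76 ± 0.43. For both, the edgeR adjusted p was 3.34e-06 and the lowest library of the 10-month label lay far above the highest of the 1-month label. miR-377 had 1 count over the 3 libraries of the 1-month label and 164 over those of the 10-month label, so that its ratio of 94.7 has a 95% interval from 16.8 to 3764 by counting error.

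miR-411a-5p and miR-379-5p, from the first precursors of the cluster, had smaller fold changes. miR-411a-5p was at 966, 756 and 430 CPM with the 1-month label and at 22737, 19189 and 13358 CPM with the 10-month label. Its log2 fold change was 4.35 ± 0.37 (edgeR adjusted p = 6.13e-06). miR-379-5p was at 899, 916 and 552 CPM against 8220, 8136 and 4691 CPM, a log2 fold change of 2.81 ± 0.30 (edgeR adjusted p = 2.27e-05). These libraries do not overlap either. The smallest changes were those of miR-485-3p (1.63 ± 0.50), miR-485-5p (1.94 ± 0.31), miR-134 (2.03 ± 0.50), miR-409-3p (2.16 ± 0.23) and miR-376e-3p (2.63 ± 0.37), all on the log2 scale. miR-134 and miR-485 are best known from neurons, where they act at synapses. MIR656, the last gene of the cluster, gave miR-656 with 1.02, 0.560 and 0 CPM against 5.69, 6.30 and 5.80 CPM, a log2 fold change of 2.99 ± 0.60.

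Over the Longlin libraries, 41 of the 54 members were tested, and 41 were higher and 0 lower with the 10-month label, against 31.2% of all 314 miRNAs tested called higher. A call here has an absolute log2 fold change over 1 and an edgeR adjusted p under 0.05 over all miRNAs tested. The largest adjusted p of a member was 0.0164. The members' log2 fold changes ran from 1.63 to 7.53 with a median of 3.62, beside a median of -0.01 over all miRNAs tested. The 3 libraries of each label did not overlap for 41 members, against 41.4% of all miRNAs tested that were separated in this direction. Of the 41 members, 12 reached 10 counts in no library of the 1-month label and so passed the filter through the libraries where they are high. With at least 10 counts asked of every library, 21 members were tested and 21 were higher, against 21% of the 224 miRNAs tested. Scaling by the total counts raised the median of all miRNAs by 0.80 and changed the calls over all miRNAs from 98 higher and 61 lower to 132 higher and 25 lower, and 41 members were higher with either scaling, against 42% of all miRNAs tested with the total counts.

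In Nubian goats the members tested moved the same way, with a wide spread among the libraries of the 1-month label. miR-381 was at 49.2, 645 and 238 CPM with the 1-month label and at 12002, 23434 and 9401 CPM with the 10-month label. Its log2 fold change was 5.43 ± 1.04 (SE, n = 3 libraries per label), with an edgeR adjusted p of 0.0304. miR-410-3p was at 0.384, 4.25 and 1.93 CPM against 71.2, 95.9 and 68.7 CPM, a log2 fold change of 5.01 ± 0.86 (edgeR adjusted p = 0.0304). In both members replicate 2 was the highest library of the 1-month label and still lay below every library of the 10-month label. Without it the log2 fold change of miR-381 was 6.73 ± 0.84 (edgeR adjusted p = 0.000208).

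Other members called in Nubian goats were miR-655 (4.56 ± 1.05), miR-369-3p (4.18 ± 0.92), miR-487b-3p (4.01 ± 0.80) and miR-495-3p (3.34 ± 0.79), given as log2 fold changes. miR-495-3p was at 7.59, 50.7 and 12.8 CPM against 272, 332 and 206.2 CPM. miR-376a had 0 counts in the 3 libraries of the 1-month label and 53, 42 and 32 counts in those of the 10-month label, and was at least 14.4-fold higher when 3 counts per library are taken as the limit. miR-329a-3p had 0 counts against 33, 12 and 12, at least 5.90-fold higher. Members of the miR-376 family are known as targets of RNA editing in other tissues.

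miR-411a-5p and miR-379-5p did not pass the test in Nubian goats. miR-411a-5p was at 248, 1956 and 271 CPM with the 1-month label and at 7159, 9564 and 6204 CPM with the 10-month label, a log2 fold change of 3.03 ± 0.90 (edgeR adjusted p = 0.0683). miR-379-5p was at 211, 1755 and 227 CPM against 2434, 2203 and 1982 CPM, a log2 fold change of 1.41 ± 0.86 (edgeR adjusted p = 0.278). The groups do not overlap in either member, although replicate 2 of the 1-month label comes close to the 10-month libraries in miR-379-5p. Without that library, which was picked by the members' own values, both passed. The log2 fold changes were then 4.87 ± 0.39 for miR-411a-5p (edgeR adjusted p = 2.69e-05) and 3.32 ± 0.31 for miR-379-5p (edgeR adjusted p = 4.12e-05). The smallest log2 fold changes were those of miR-409-3p (0.43 ± 0.92), miR-485-5p (0.79 ± 0.70), miR-379-3p (1.00 ± 0.95), miR-543-3p (1.04 ± 0.75) and miR-379-5p. Without that library miR-409-3p was at 2.27 ± 0.55 and miR-543-3p at 2.37 ± 0.48, and both were called.

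Over the Nubian libraries 34 of the 54 members were tested, and 8 were higher and 0 lower, against 6.78% of all 295 miRNAs tested called higher. All 34 fitted log2 fold changes were above 0, with a median of 2.76, beside -0.11 over all miRNAs tested, and the median was 2.74 with the 2 members at 0 counts set to their bound. With no filter 47 of 52 members were above 0, against 228 of 480 miRNAs, and the lowest was at -3.19. miR-485-3p, not tested in this breed, had a lower mean with the 10-month label. It was at 0.384, 2.28 and 0.138 CPM against 0.673, 0.630 and 0 CPM. The libraries did not overlap for 27 members, against 25.4% of all miRNAs tested. Of the 34 members, 4 reached 10 counts in no library of the 1-month label and so passed the filter through the other label. With at least 10 counts asked of every library, 19 members were tested and 8 were higher, against 8.56% of the 222 miRNAs tested. Without replicate 2 of the 1-month label, 33 of 33 members tested were higher, against 22.5% of all miRNAs tested, with a median of 4.62. Without replicate 1 of that label 3 members were called, against 1.39% of all miRNAs tested. Without replicate 3, or without any 1 of the 3 libraries of the 10-month label, 0 were called, against 0% of all miRNAs tested. DESeq2 called 23 members with an adjusted p, against 18% of all miRNAs tested. Scaling by the total counts changed the calls over all miRNAs from 20 higher and 15 lower to 34 higher and 4 lower, and then called 18 members, against 11.5% of all miRNAs tested.

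**Figure D3:**
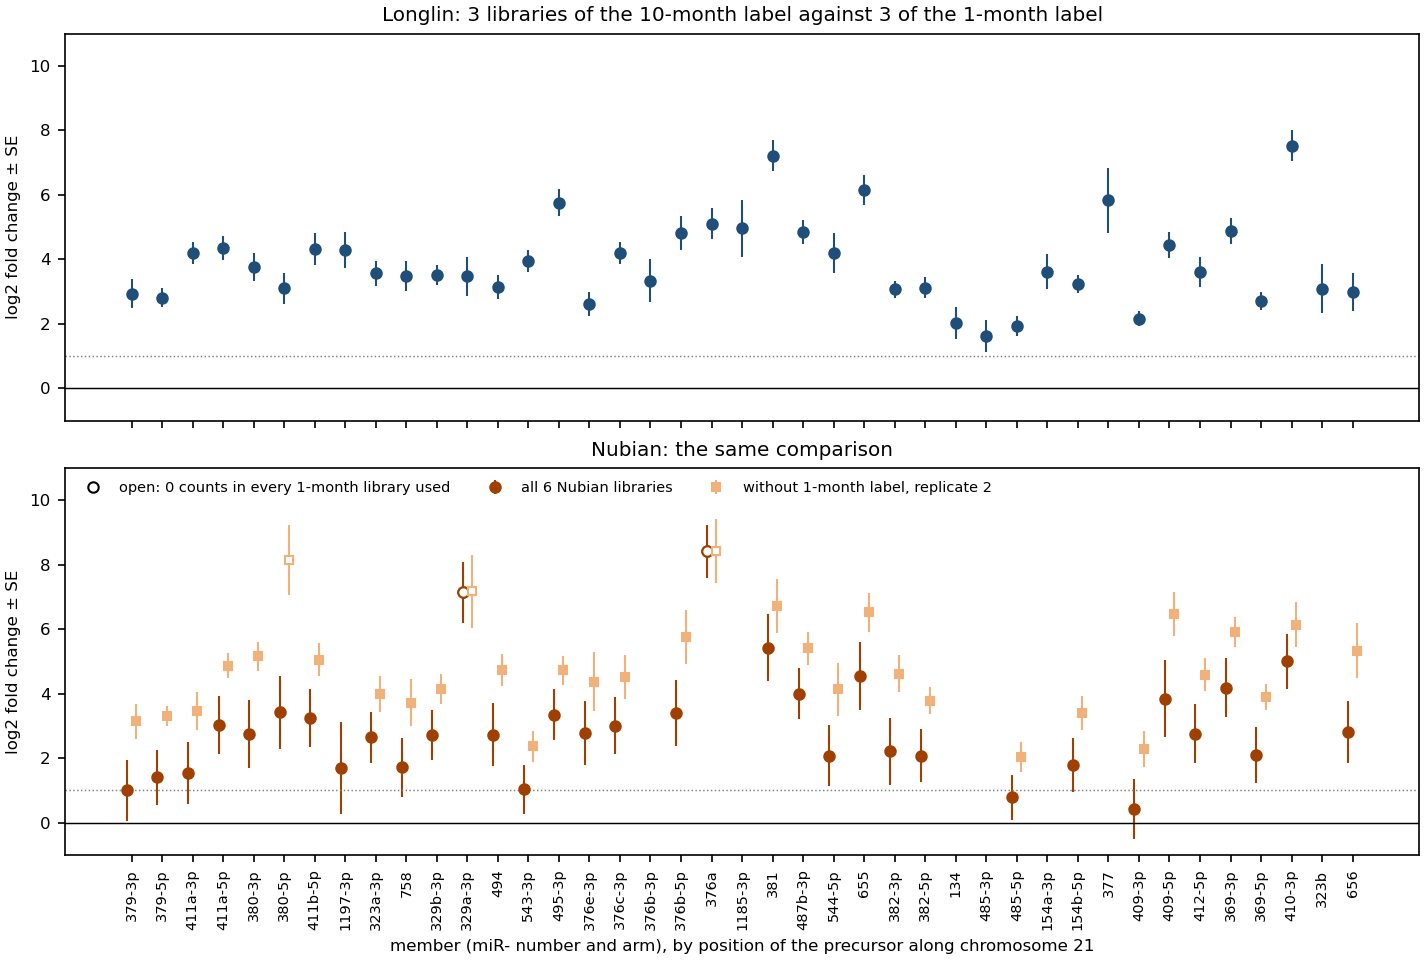
Log2 fold change of the 10-month over the 1-month label with its standard error for each member tested, by position of the precursor, in Longlin goats (top) and Nubian goats (bottom), where squares leave out replicate 2 of the 1-month label. The Longlin values lie between 1.63 and 7.53. The Nubian squares have a median of 4.62 and the Nubian circles one of 2.76, the dotted line marks 1, and open symbols mark members with 0 counts in every 1-month library used, whose fitted value is no measure of size.

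Position along the cluster and the size of the change showed little relation. Spearman's rho across members was -0.036 in Longlin goats (41 members) and 0.20 in Nubian goats (34 members). Members share their libraries and their transcript, so these values are a description only. Neighbours could differ widely: in Longlin goats miR-369-3p changed by 4.89 and miR-369-5p by 2.71 on the log2 scale, although both come from 1 precursor.

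The arms of some precursors changed in balance. Of the precursors with both arms in the table, 8 had at least 20 counts on both arms together in every library, and the share of the 3p arm was compared between the labels within each breed by a two-sided exact permutation test over 400 assignments, where 0.005 is the smallest p possible. miR-369 had 44.0%, 33.6% and 25% of its counts on the 3p arm in the Longlin libraries of the 1-month label and 67.1%, 76.5% and 70.9% in those of the 10-month label. In Nubian goats it had 32.1%, 26.6% and 24.8% against 64.2%, 65.9% and 51.4%. The leading arm was thus 5p in the 6 libraries of the 1-month label and 3p in the 6 of the 10-month label, without overlap (exact permutation p = 0.005, 0.02 adjusted over the 8 precursors).

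miR-409, whose precursor ends 175 bases before that of miR-369, went the other way. Its 3p share was 83.5%, 91.8% and 94.7% in the Longlin libraries of the 1-month label and 64.7%, 65.3% and 59.8% in those of the 10-month label. In Nubian goats it was 95%, 92.3% and 97.6% against 67.5%, 47.7% and 44.5%. All 6 libraries of the 1-month label lay above the 6 of the 10-month label (exact permutation p = 0.005, 0.02 adjusted over the 8 precursors). The levels show which arms moved: in Longlin goats miR-409-5p rose by 4.45 ± 0.41 and miR-409-3p by 2.16 ± 0.23 on the log2 scale. The CPM of miR-409-5p were 5.94, 2.94 and 1.72 with the 1-month label and 87.5, 125 and 90.8 with the 10-month label. The arm shares do not depend on the scaling between libraries.

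The other 6 precursors did not pass the test after adjustment. The 3p share of miR-411a was 1.70% on average with the 1-month and 1.44% with the 10-month label in Longlin goats, and 1.44% and 0.512% in Nubian goats (exact permutation p = 0.03, 0.07 adjusted). That of miR-543 was above 97% in all libraries (exact permutation p = 0.035, 0.07 adjusted). miR-380 gave nearly only the 3p arm (exact permutation p = 0.475) and miR-154b nearly only the 5p arm (exact permutation p = 0.425). miR-382 had a 3p share of 25% and 22.6% in Longlin goats and of 16.3% and 21.2% in Nubian goats by label (exact permutation p = 0.65). miR-379 kept 0.375% to 0.480% on the 3p arm in the means of the 4 groups (exact permutation p = 0.885).

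**Figure D4:**
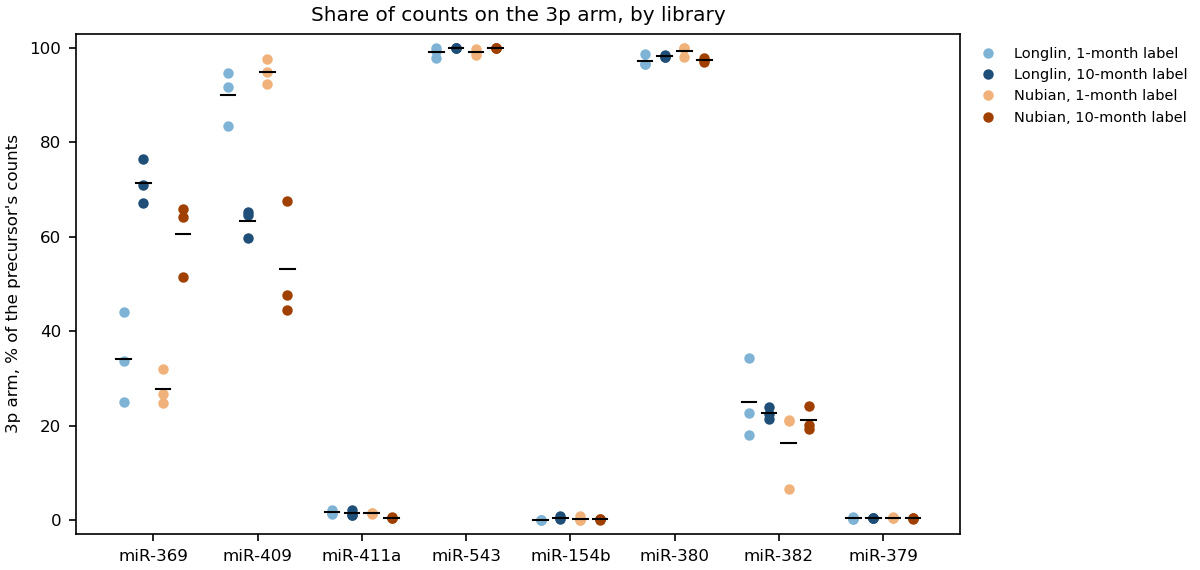
Percent of a precursor's counts on its 3p arm for the 8 precursors with at least 20 counts in every library, with 1 point per library and a line at the mean of each group of 3. In miR-369 the 1-month libraries lie between 24.8% and 44.0% and the 10-month libraries between 51.4% and 76.5%, in miR-409 they lie at 83.5% to 97.6% and 44.5% to 67.5%. miR-382 ranges from 6.58% to 34.3%, with the labels overlapping.

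With the 1-month label no difference between the breeds was found. Of 25 members tested, 0 were called by edgeR, against 0% of all 277 miRNAs tested, and DESeq2 called 0 members. At an unadjusted p under 0.05 edgeR had 0 members. The log2 fold changes of Longlin over Nubian goats ran from -0.69 (miR-410-3p) to 0.86 (miR-369-3p) with a median of 0.23, and 16 were above and 9 below 0. The standard errors were 0.64 to 1.05, so that differences of this size could not be resolved. Without the Nubian replicate 2, 6 of 23 members were higher in Longlin goats, against 3.08% of all miRNAs tested, with a median of 1.70. They were miR-369-3p, miR-369-5p, miR-379-5p, miR-380-3p, miR-382-3p and miR-411a-3p.

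With the 10-month label the cluster was higher in Longlin than in Nubian goats. miR-495-3p, at 2725, 2164 and 926 CPM in Longlin and 272, 332 and 206.2 CPM in Nubian goats, had the largest log2 fold change at 2.50 ± 0.38 (edgeR adjusted p = 0.0109). It was followed by miR-411a-3p at 2.36 ± 0.44 and miR-543-3p at 2.22 ± 0.41. miR-543-3p was at 404, 709 and 244 CPM in Longlin goats and at 61.7, 112 and 52.2 CPM in Nubian goats. The next values, 2.17 ± 0.75 for miR-323b, 1.99 ± 0.60 for miR-1185-3p and 1.91 ± 0.80 for miR-1197-3p, belong to members with few counts, and of these edgeR called miR-1185-3p only.

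Among the abundant members, miR-379-5p was 1.35 ± 0.24 higher on the log2 scale (edgeR adjusted p = 0.0109) and miR-381 was 1.21 ± 0.37 higher (edgeR adjusted p = 0.0434). miR-411a-5p had a log2 fold change of 0.95 ± 0.28 (edgeR adjusted p = 0.0405), under the limit of 1 for a call. The smallest differences were those of miR-494 (0.36 ± 0.28), miR-323a-3p (0.54 ± 0.26), miR-409-5p (0.56 ± 0.29), miR-369-5p (0.63 ± 0.22) and miR-380-5p (0.66 ± 0.33), and none of these passed. miR-494 was at 448, 715 and 469 CPM in Longlin goats and at 297, 449 and 263 CPM in Nubian goats, with a slight overlap.

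Of 41 members tested with the 10-month label, 23 were higher and 0 lower in Longlin goats, against 13.1% of all 313 miRNAs tested called higher. The libraries of the breeds did not overlap for 39 members, against 31.6% of all miRNAs tested, and overlapped for miR-377 and miR-494. Of the 41 members, 2 reached 10 counts in no Nubian library. With at least 10 counts asked of every library, 33 members were tested and 26 were higher, against 17.6% of the 256 miRNAs tested. The median log2 fold change of the members was 1.21, beside -0.07 over all miRNAs tested. Scaling by the total counts, which raised the median of all miRNAs by 0.79, changed the calls over all miRNAs from 41 higher and 22 lower to 95 higher and 1 lower and called 40 members, against 30.4% of all miRNAs tested. With all 12 libraries in 1 fit, 0 members were called, against 0% of all 331 miRNAs tested. That fit differs in the spread, the scaling and the set of miRNAs tested, and the cause of the shift was not tested. Leaving out Longlin replicate 1 gave 12 members, against 6.33% of all miRNAs tested, and leaving out Longlin replicate 2 gave 14, against 9.33%.

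**Figure D5:**
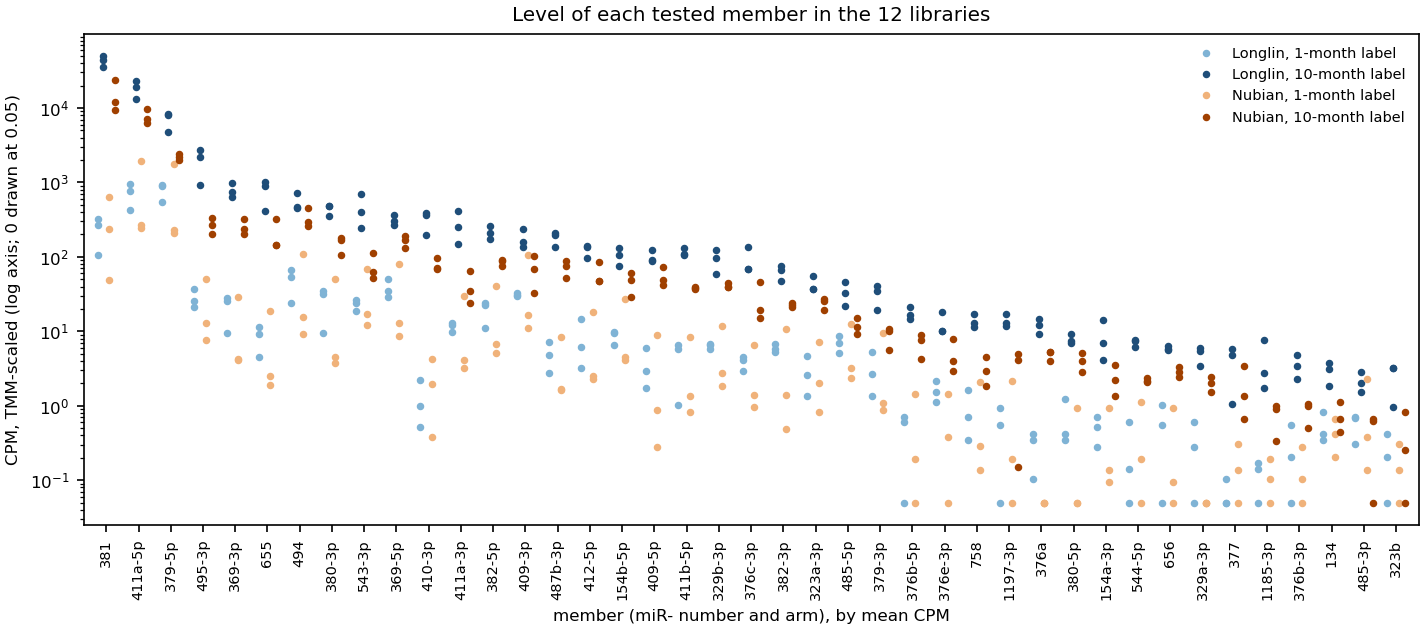
CPM (log axis, TMM-scaled, 0 drawn at 0.05) of the 41 members tested, ordered by mean, with 1 point per library and a colour for each breed and label. The dark points of the 10-month label lie above the light points of the 1-month label of the same breed in most members, and for miR-381 they lie at 36056 to 49838 in Longlin and 9401 to 23434 in Nubian goats.

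Whether the age difference itself differs between the breeds was tested by the interaction over all 12 libraries. Of 41 members 0 passed in edgeR, against 0% of all 331 miRNAs tested, and 0 by DESeq2. At an unadjusted edgeR p under 0.05 the Nubian minus Longlin difference was above 0 for 2 members, against 3.63% of all miRNAs tested, and below 0 for 5, against 7.55%. The 2 were miR-329a-3p and miR-376a, which had 0 counts in every Nubian library of the 1-month label, so that their fitted difference is no measure of size. The lowest p belonged to miR-543-3p, with a Nubian minus Longlin difference of -3.11 ± 0.86 on the log2 scale (edgeR adjusted p = 0.302), followed by miR-495-3p (-2.60 ± 0.86) and miR-410-3p (-2.75 ± 0.91). The difference was below 0 for 38 of 41 members with a median of -1.45. Without replicate 2 of the Nubian 1-month label the median was 0.47 and 29 of 41 members were above 0. These medians and sign counts are given for the members only, without the same values over all miRNAs tested. They therefore cannot tell a shift of the members from a shift shared by the other miRNAs.

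Other miRNAs of the region were followed by a list of names, which holds 18 miRNAs. This list and those below were made with earlier results of these data known, so their counts are no independent support. In Longlin goats 14 of 16 tested were higher with the 10-month label, against 31.2% of all miRNAs tested, with a median log2 fold change of 4.19. The 2 not called, miR-345-3p (-0.15 ± 0.40) and miR-345-5p (-1.06 ± 0.51), come from MIR345, which lies on the far side of DLK1, 691.5 kb before MIR379. The others include miR-127 and miR-136, which are antisense to RTL1, and miR-127-3p had a log2 fold change of 4.49 ± 0.41. In Nubian goats 4 of 14 tested were higher, against 6.78% of all miRNAs tested, and miR-345-5p was lower (-1.97 ± 0.43, edgeR adjusted p = 0.0349), with a median of 2.83. Without the Nubian library that stood apart 11 of 13 were higher, against 22.5% of all miRNAs tested, and 1 was lower, against 11.6%. With the 10-month label 12 of 16 were higher in Longlin than in Nubian goats, against 13.1% of all miRNAs tested, and with the 1-month label 0 of 12 were, against 0%. Their summed share of the counts was 0.0535% to 0.151% against 2.54% to 4.84% in Longlin goats and 0.0225% to 0.214% against 0.803% to 0.946% in Nubian goats.

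The X-linked cluster of miR-424, miR-450 and miR-542, another group of miRNAs studied in muscle development, had 6 of 6 members higher in Longlin goats with the 10-month label (median 2.67), against 31.2% of all miRNAs tested, and 1 of 5 in Nubian goats (median 1.91), against 6.78%. Without the Nubian library that stood apart 4 of 5 were higher there, against 22.5%.

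Marker miRNAs of muscle fibres and of other cells were followed by lists of names. Over all miRNAs tested, 31.2% were called higher and 19.4% lower with the 10-month label in Longlin goats, 6.78% higher and 5.08% lower in Nubian goats, and 7.03% lower in Longlin than in Nubian goats with the 10-month label. The fibroblast and stroma list (5 miRNAs from miR-199a, miR-199b and miR-214) took 0.0473% to 0.0828% of the counts with the 1-month label and 0.203% to 0.289% with the 10-month label in Longlin goats, with 2 of 5 called higher. In Nubian goats it took 0.0310% to 0.0690% against 0.0991% to 0.206%, with 3 of 5 higher. The muscle fibre list fell in share from 64.0% to 66.5% down to 39.4% to 54.6% in Longlin goats, with 3 of 7 tested called lower, and was 58.2% to 71.7% against 62.4% to 69.3% in Nubian goats, with 2 of 7 lower. With the 10-month label, 4 of 7 muscle fibre miRNAs were lower in Longlin than in Nubian goats. Leukocyte miRNAs took 0.0310% to 0.0401% against 0.0168% to 0.0215% in Longlin goats and 0.0186% to 0.0432% against 0.0143% to 0.0214% in Nubian goats, with 2 of 3 lower in Longlin and 0 of 3 in Nubian goats. The erythroid list took 0.0221% to 0.0377% against 0.0399% to 0.0492% in Longlin goats, with 1 of 2 called higher, and 0.0320% to 0.0520% against 0.0255% to 0.0419% in Nubian goats, with 0 of 3 called. The endothelial list took 0.351% to 0.575% against 0.409% to 0.519% in Longlin goats and 0.242% to 0.732% against 0.296% to 0.315% in Nubian goats, with 0 of 2 called in either breed. The smooth muscle list took 5.15% to 9.69% against 9.06% to 11.8% in Longlin goats and 6.70% to 13.1% against 5.65% to 6.95% in Nubian goats, with 1 of 4 called lower in each. Without the Nubian library that stood apart the calls in Nubian goats were 3 of 5 higher for the fibroblast and stroma list, 2 of 7 lower for the muscle fibre list, 1 of 4 lower for the smooth muscle list and 0 for the other lists. Over all miRNAs tested, 22.5% were then called higher and 11.6% lower. All 5 fibroblast and stroma markers were above 0 CPM in every library. Among the other lists, miR-499-3p, miR-451-3p and miR-223-5p, the minor arms of their precursors, were at 0 in some libraries. The part of these cells in the cluster's difference was not tested.

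The deposited list of predicted targets, the overlap of 3 prediction programs, ties few transcripts to the cluster. It holds 139 pairs with a member among 5742 pairs, or 2.42%, and they cover 107 genes. A target is listed for 32 of the 54 members, with a median of 2 genes each, against 4 over all miRNAs. The longest lists belong to miR-485-5p (19 genes), miR-412-3p (18) and miR-134 (10). Their means over the 12 libraries were 14.7, 0.203 and 1.15 CPM, in this order. miR-381 has 1 listed target, EIF2B5, a subunit of the translation factor eIF2B, and miR-411a-5p and miR-495-3p have 0. Of the 107 genes 83 are protein-coding, such as MEF2D, a muscle transcription factor (miR-154b-5p). Another is IGFBP3, a binding protein of insulin-like growth factors (miR-496-5p, not tested, with 5 counts over all libraries). The remaining 24 genes of the 107 are miRNA genes, 8 of them precursors of the cluster itself. Predictions were not tested against mRNA here.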

How the data were processed

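The data are 12 small RNA libraries of longissimus dorsi, 3 rams for each breed and age label. The labels' extraction text speaks of adipose tissue, while the source is given as longissimus dorsi. The authors filtered the reads, mapped them to the goat genome (Bowtie 0.12.2 per the submitters' processing notes), assigned them to goat miRNAs of miRBase and deposited raw counts per miRNA and library. They also deposited TPM, the count per 1000000 miRNA counts of a library, which was used only to check the counts. The deposited comparison tables hold, as signal, mean counts per age divided by size factors, used here only for the age names. The authors' fold changes and p-values in the same tables, and the GO tables, were not used.

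Members were chosen by name. Members and lists were chosen with earlier results of these data known. The 4 comparisons were fitted by edgeR 4.0.16 in R 4.3.3 (TMM, quasi-likelihood test) with the interaction fitted over 12 libraries. The SE of a log2 fold change was derived from that test, as its absolute value divided by the square root of the F statistic. A miRNA was tested where 3 or more of the libraries fitted had 10 or more counts. Calls need a log2 fold change beyond 1 in either direction (no limit for the interaction) and a p, adjusted by Benjamini-Hochberg over everything tested, below 0.05. Arm shares were compared by exact permutation within breeds. Wilson intervals and Spearman's rho came from scipy 1.17.1. Totals were 7002417 to 11350546 counts per library, 3 counts were taken as the detection limit, and reads carry no molecular identifiers, so intervals cover counting error only. The pipeline was tested on simulated data.

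Named members are those the study names, the 5 highest mean CPM, the 5 largest and 5 smallest fold changes of each comparison, those against the common sign, the 3 smallest p of the interaction, the arm pairs, and the first and last member. Groups by seed sequence were not formed. Any further member was picked once its values were known. Alternatives were DESeq2 1.42.0, DESeq2's size factors, total counts with and without the 10 most abundant miRNAs, other filters, 1 fit of 12 libraries, a block for the replicate number, and leaving out single libraries. edgeR with unadjusted p was added after seeing the data. Same-numbered libraries correlated in their deviations by 0.275, 0.415 and 0.329 between the breeds at the 10-month label. There the block raises the members called higher from 23 to 29, and the share of all miRNAs from 13.1% to 16%. In the other comparisons at least 1 correlation was under 0.1 and the numbers were not taken as pairs. Positions come from RefSeq, assembly ARS1.2.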

Additional observations from a re-analysis of the deposited data

How the results depend on the processing

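The members called higher in Longlin goats numbered 41, and 41 or 40 under every scaling, tool and fit with the same filter, 47 with no filter and 21 of 21 tested with at least 10 counts asked of every library, where fewer miRNAs are tested. Of all miRNAs 30.2% to 42% were higher under the settings with the same filter, 23.2% with no filter and 21% with at least 10 counts in every library. Leaving out 1 library gave 29 to 41, against 23.9% to 32.2% of all miRNAs, and all 29 tested were called where a 10-month library was left out. In Nubian goats 8 became 28 with all 12 libraries in 1 fit, 23 and 25 by DESeq2 with adjusted and unadjusted p, 23 by edgeR with unadjusted p, 20 with the replicate number as a block and 18 with total counts. Of all miRNAs 18.7%, 18%, 19.7%, 16.9%, 11.9% and 11.5% were then higher, in this order, against 6.78%. Leaving out 1 Nubian library gave 0 to 33 members, against 0% to 22.5% of all miRNAs. With the 1-month label the breeds gave 0 members and 0 to 6 with 1 library left out, against 0% to 3.08% of all miRNAs. With the 10-month label 23 became 0 with all 12 libraries in 1 fit and 40 with total counts, and 12 to 29 with 1 library left out. Of all miRNAs 0%, 30.4% and 6.33% to 16.4% were then higher, in this order, against 13.1%. The interaction gave 0 and, with unadjusted p, 2 and 5. The block changed no other call by over 1.5 times, but in the breeds at the 1-month label it turned miR-154b-5p to 0.16, miR-379-3p to 0.35, miR-409-3p to 0.31 and miR-411a-5p to 0.50 on the log2 scale. The cause of these shifts was not tested.

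Leaving out 1 library moved the Nubian difference of miR-409-3p between -0.046 and 2.27. Between the breeds at the 1-month label it moved miR-154b-5p between -0.75 and 1.01, miR-379-3p between -0.64 and 0.13, miR-379-5p between -0.21 and 1.86, miR-381 between -0.78 and 0.69, miR-409-3p between -0.86 and 1.18, miR-411a-5p between -0.52 and 1.47, miR-411b-5p between -0.012 and 2.02, miR-487b-3p between -0.019 and 1.58, miR-495-3p between -0.017 and 1.47 and miR-543-3p between -0.76 and 0.66. None of these was called with all libraries. The arm pairs called were 2, and 4 with at least 50 counts in every library (miR-411a and miR-543 added, 5 tested), 3 with at least 10 (miR-412 added) and 2 to 4 with 1 library left out. The difference in 3p share, in percentage points, then ran from -1.16 to 3.61 for miR-382 and from -0.042 to 0.043 for miR-379. For miR-412 the 1-month libraries held 0 3p counts beside 183 5p counts in Longlin and 216 in Nubian goats. Those of the 10-month label held 26 beside 5017 and 4 beside 1513. Its 3p share with the 1-month label is thus limited by depth. Without the 10 most abundant miRNAs in the denominator, among which miR-381 is, the cluster's share was 1.54% and 47.0% in Longlin and 1.59% and 20.1% in Nubian goats, by label. With 1 library left out the mean share was 0.157% to 0.240% and 8.50% to 11.3% in Longlin goats and 0.0653% to 0.270% and 2.13% to 2.99% in Nubian goats.

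With 3 libraries per group, the spread of the Nubian 1-month libraries limits what can be resolved. Members near 3 counts are limited by depth. The age names differ between the deposited tables, so directions by age hold for the labels only. Outliers are not tested in groups of 3, and the labels name no batch.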
